A study of Mus musculus with 9 samples.

Results

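Genes that copy DNA and supply its building blocks were read in the large intestine of 2 mouse strains with missense mutations of *Muc2*, the gene of the main secreted intestinal mucin. The list holds 43 genes, chosen by name for their part in DNA replication or deoxynucleotide synthesis, and each was read from the brightest probe set annotated to it alone. All 43 had such a probe set among the 18193 genes on the arrays that did, and all 43 passed the filter on dim signals, as did 11453 genes in all. *Winnie* mice are C57BL/6, came from a founder line treated with the mutagen ENU, and have tyrosine in place of a cysteine in the D3 domain of Muc2. *Eeyore* mice are a mixed C57BL/6 and NOD-SCID strain that also came from an ENU-treated C57BL/6 founder, and have proline in place of a serine in the D4 domain. Wild-type mice were C57BL/6. All mice were 8 wk old and labelled male, with 3 mice per group, and RNA from proximal and distal large intestine, pooled equally for each mouse, went on 1 Affymetrix array per mouse.

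Before a cell copies its genome, origins of replication are licensed: the origin recognition complex, Cdc6 and Cdt1 load rings of the Mcm2-7 helicase onto DNA. In S phase the helicase is switched on by Cdc45 and the GINS complex, primase and the polymerases copy the strands, and the clamp loader places the sliding clamp that keeps polymerases on DNA. Ribonucleotide reductase, thymidylate synthase and thymidine kinase make the deoxynucleotides that are used up. In the intestine these genes are active mainly in the dividing cells of the crypts, and also in dividing lymphocytes.

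Some features of the arrays apply to every comparison with wild-type mice. The wild-type arrays went against their male label. *Xist*, which is expressed from the inactive X chromosome of females, had signals of 9.13 to 61.8 in *Winnie* and 65.7 to 107 in *Eeyore* arrays, against 7370 to 8260 in wild-type arrays, while Y-linked *Eif2s3y* had 1070 to 1450 and 1190 to 1320, against 4.73 to 24.1. Sex and *Muc2* allele therefore cannot be told apart, nor, in *Eeyore* mice, can strain background. Of the 43 genes, only *Pola1* lies on the X chromosome and none on the Y chromosome in the RefSeq annotation of GRCm38.p6. Markers of cell types also moved with genotype. All 15 smooth muscle markers were lower in both strains, with summed signals of 95211 to 104323 in *Winnie* and 77277 to 86262 in *Eeyore* arrays, against 208286 to 213536 in wild-type arrays. Of 12 epithelial markers, 3 were higher in *Winnie* and 7 in *Eeyore*, with sums of 255763 to 266858 and 278522 to 304438, against 224699 to 236304 in wild-type arrays. In such whole-tissue RNA, a change in the number of cells of a type and a change in RNA per cell cannot be told apart. The part of these shifts in the results below was not tested directly, and where scaling each array to its epithelial markers ended a rise, the value so obtained is given with the gene.

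In *Winnie* mice, 14 of the 43 genes rose (32.6%) and 0 fell (3 were lower at an unadjusted p under 0.05), where 9.75% of all 22519 tested probe sets were higher and 11.7% lower than wild-type. In *Eeyore* mice, 11 rose (25.6%) and 1, *Rfc1*, fell, where 12.2% of all tested probe sets were higher and 17.1% lower (limma with Benjamini-Hochberg adjustment over all tested probe sets, adjusted p under 0.05). Both strains were compared with the same 3 wild-type arrays. The 9 genes that rose in both were *Rrm2*, *Rfc4*, *Mcm3*, *Pole2*, *Tk1*, *Mcm4*, *Rfc5*, *Prim1* and *Pcna*, where 7.32% of all tested probe sets were higher in both. *Ccne2*, *Dut*, *Gmnn*, *Mcm5* and *Rrm1* passed in *Winnie* mice only and *Pold2* and *Rfc3* in *Eeyore* mice only, which does not show that the strains differed there. The median log2 fold change of the list was 0.30 in *Winnie* and 0.23 in *Eeyore*, against -0.09 over all tested probe sets in each, and 36 and 32 of the 43 values were above 0. Signals of 16 genes were higher in every *Winnie* array than in any wild-type array (17.1% of all tested probe sets) and those of 19 in every *Eeyore* array (18.2%).

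These counts depended on single mice and on the scaling. Without *Winnie* mouse 2, 8 genes passed in *Winnie*, without *Eeyore* mouse 2, 5 passed in *Eeyore*, and 7 passed in *Eeyore* when either wild-type mouse 1 or 2 was omitted. The number higher in both strains was then 6, 5, 5 and 4, and *Rrm2*, *Rfc4*, *Mcm3* and *Tk1* were among them whichever of the 9 mice was left out. Centring each array on its median, which moves all tested probe sets up to a median of 0.32 in *Winnie* and 0.24 in *Eeyore*, gave 30 rises and 0 falls for *Winnie* and 22 rises and 0 falls for *Eeyore*. Centring on the epithelial markers, which moves that median down to -0.26 and -0.41, gave 9 rises and 3 falls (*Rfc1*, *Rfc2*, *Tyms*) for *Winnie* and 2 rises (*Rfc4*, *Rrm2*) and 4 falls (*Rfc1*, *Rpa1*, *Slbp*, *Tyms*) for *Eeyore*. Centring shifts the list and all other probe sets of an array together, so that it does not test the difference between the median of the list and that of all tested probe sets (0.39 in *Winnie* and 0.32 in *Eeyore*). Without *Winnie* mouse 2 that difference was 0.21 in *Winnie*.

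**Figure D1:**
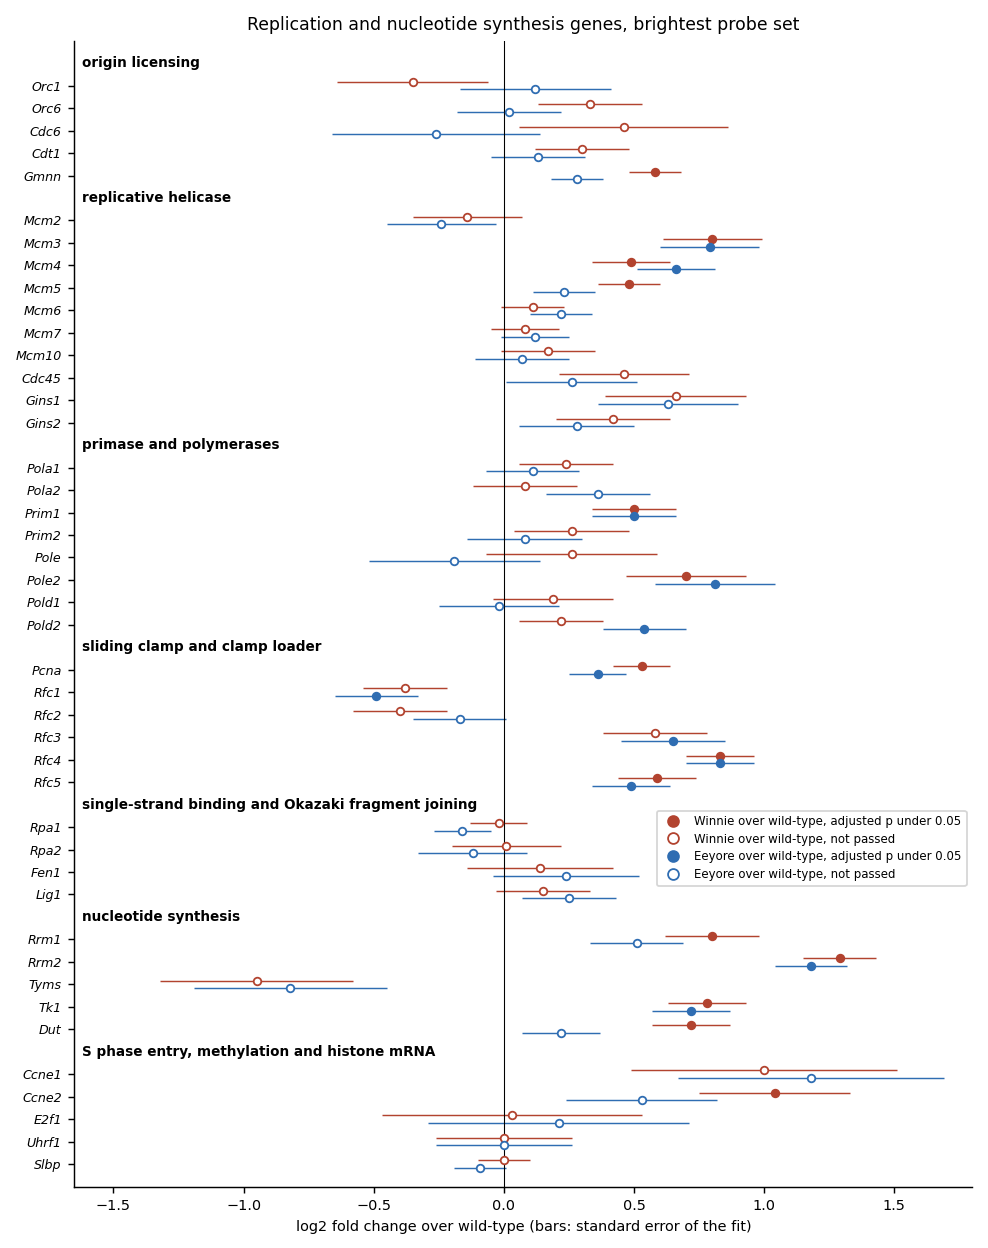
Log2 fold change over wild-type (horizontal axis) of all 43 genes, grouped by role, in *Winnie* (red) and *Eeyore* (blue) mice, with the standard error of the fit. Filled points passed the adjusted p of 0.05, 14 in *Winnie* and 12 in *Eeyore*, of which *Rfc1* alone lies below 0.

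The largest rise in both strains was in *Rrm2*, the small subunit of ribonucleotide reductase, whose level limits deoxynucleotide supply in dividing cells. Its signal was 1450, 1868 and 1538 in *Winnie* mice and 1597, 1589 and 1296 in *Eeyore* mice, against 679, 649 and 643 in wild-type mice. No mutant array overlapped with wild-type, and the wild-type arrays lay close together. The log2 fold change was 1.29 ± 0.14 (SE) in *Winnie* (adjusted p = 0.000183) and 1.18 ± 0.14 in *Eeyore* (adjusted p = 0.000144). *Rfc4*, a small subunit of the clamp loader, had signals of 1035, 1124 and 932 in the *Winnie* and 1003, 1107 and 983 in the *Eeyore* mice, against 584, 579 and 571 in wild-type mice. Again no mutant array overlapped with wild-type, and the log2 fold change was 0.83 ± 0.13 in each strain (adjusted p = 0.00133 and 0.000787). *Rrm2* and *Rfc4* were the only genes of the list that passed in both strains under all 20 alternative settings.

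*Mcm3*, a subunit of the Mcm2-7 helicase, had signals of 840, 1327 and 935 in the *Winnie* and 997, 1201 and 847 in the *Eeyore* mice, against 527, 627 and 593 in wild-type mice. It was highest in mouse 2 of each mutant strain and did not overlap with wild-type, and it rose by 0.80 ± 0.19 in *Winnie* (adjusted p = 0.0112) and 0.79 ± 0.19 in *Eeyore* (adjusted p = 0.00884) on the log2 scale. With the mean over all its probe sets *Mcm3* had 0.39 and 0.22 and passed in neither strain (adjusted p = 0.291 and 0.531). That mean includes a dim probe set below the filter, with -0.69 in each strain. With epithelial centring *Mcm3* had 0.47 in *Eeyore* (adjusted p = 0.0845). *Tk1*, the thymidine kinase of the salvage pathway, had signals of 886, 1170 and 972 in the *Winnie* and 926, 983 and 991 in the *Eeyore* mice, against 494, 653 and 622 in wild-type mice. Its log2 fold change was 0.78 ± 0.15 in *Winnie* (adjusted p = 0.00496) and 0.72 ± 0.15 in *Eeyore* (adjusted p = 0.00492), again without overlap. With epithelial centring the *Eeyore* value was 0.40 (adjusted p = 0.0744).

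*Pole2*, the accessory subunit of leading-strand polymerase epsilon, had signals of 363, 486 and 409 in the *Winnie* and 401, 577 and 392 in the *Eeyore* mice, against 242, 209 and 331 in wild-type mice. Wild-type mouse 3 came close to the lowest mutant arrays, and the rise was 0.70 ± 0.23 in *Winnie* (adjusted p = 0.0465) and 0.81 ± 0.23 in *Eeyore* (adjusted p = 0.0199). The call in *Winnie* was lost without *Winnie* mouse 1, 2 or 3 (adjusted p = 0.0518, 0.15 and 0.0976) and without wild-type mouse 1 or 2 (0.12 and 0.158), and that in *Eeyore* without *Eeyore* mouse 2 (0.0841) or wild-type mouse 1 or 2 (0.0582 and 0.0798). With epithelial centring it had 0.54 and 0.50 and passed in neither strain (adjusted p = 0.119 in each). *Mcm4*, another helicase subunit, had signals of 1029, 1246 and 1143 in the *Winnie* and 1245, 1528 and 1107 in the *Eeyore* mice, against 858, 832 and 748 in wild-type mice. It did not overlap with wild-type, and its rise was 0.49 ± 0.15 in *Winnie* (adjusted p = 0.0346) and 0.66 ± 0.15 in *Eeyore* (adjusted p = 0.00612). Its call in *Winnie* was lost without any 1 wild-type mouse or without *Winnie* mouse 2 or 3 (adjusted p between 0.0637 and 0.11), while that in *Eeyore* held without each mouse. With epithelial centring *Mcm4* had 0.32 and 0.34 and passed in neither strain (adjusted p = 0.15 and 0.0984).

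**Figure D2:**
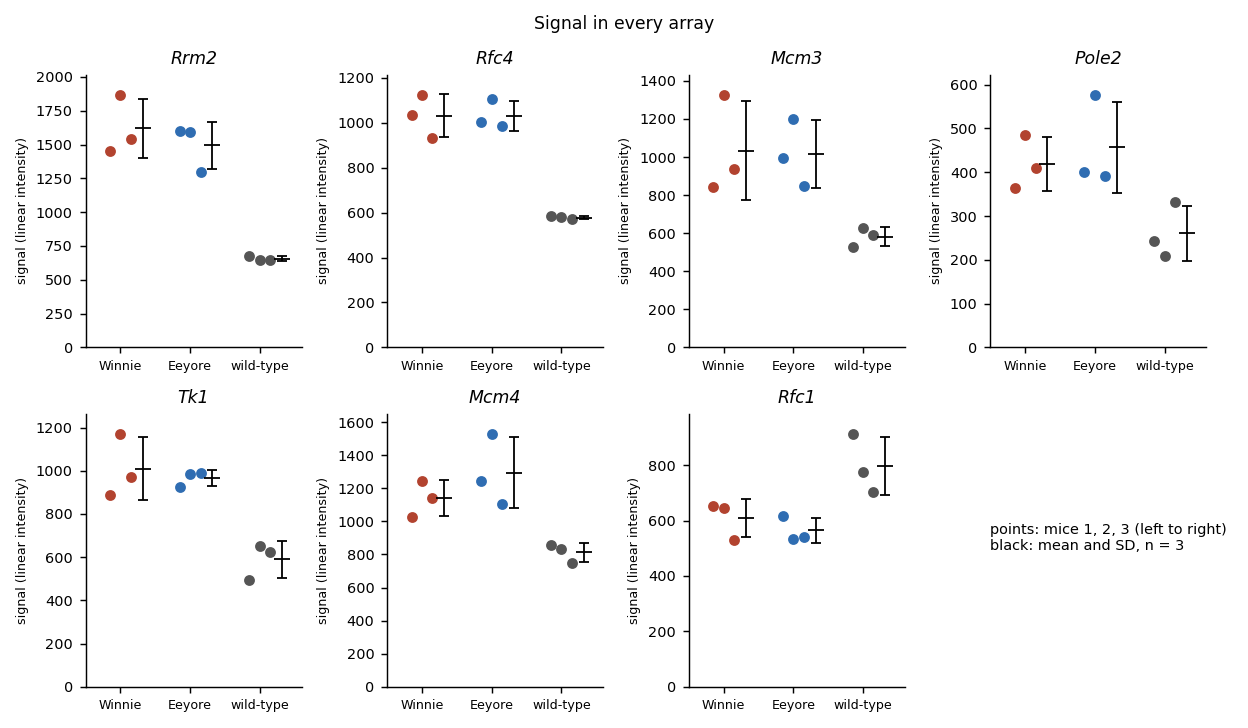
Deposited signal (vertical axis, linear intensity from 0) of 7 genes in every array, as points for *Winnie*, *Eeyore* and wild-type mice, with the mean and SD of 3 mice in black. In the first 6 panels every mutant array lies above every wild-type array, and in the *Rfc1* panel every mutant array lies below.

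Promoters of the 4 genes with the largest mean change among those that rose in both strains are shown because S phase genes are known targets of E2F factors. Each is a RefSeq window of 300 bases on GRCm38.p6, 250 before an annotated start and 50 after it, read along the gene. For *Pole2* this start is not the outermost base of the gene (69228205). Capitals mark an E2F word (TTTGGCGC, TTTCGCGC, TTTGCCGC or TTTCCCGC) or a CCAAT box (CCAAT), each on either strand. The windows are chr12:24708004-24708303 on the plus strand for *Rrm2* and, on the minus strand, chr16:23127681-23127980 for *Rfc4*, chr1:20820263-20820562 for *Mcm3* and chr12:69228141-69228440 for *Pole2*.
Rrm2: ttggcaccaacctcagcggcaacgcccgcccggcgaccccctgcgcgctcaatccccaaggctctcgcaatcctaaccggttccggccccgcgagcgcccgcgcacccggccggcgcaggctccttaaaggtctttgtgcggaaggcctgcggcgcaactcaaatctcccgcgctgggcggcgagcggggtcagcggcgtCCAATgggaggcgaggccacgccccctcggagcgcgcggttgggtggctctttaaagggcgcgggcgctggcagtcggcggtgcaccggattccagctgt
Rfc4: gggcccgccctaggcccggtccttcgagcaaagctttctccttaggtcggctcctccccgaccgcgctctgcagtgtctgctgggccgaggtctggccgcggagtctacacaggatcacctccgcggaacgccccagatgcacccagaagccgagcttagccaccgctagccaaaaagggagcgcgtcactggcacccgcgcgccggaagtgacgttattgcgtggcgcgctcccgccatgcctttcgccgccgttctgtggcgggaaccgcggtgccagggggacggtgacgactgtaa
Mcm3: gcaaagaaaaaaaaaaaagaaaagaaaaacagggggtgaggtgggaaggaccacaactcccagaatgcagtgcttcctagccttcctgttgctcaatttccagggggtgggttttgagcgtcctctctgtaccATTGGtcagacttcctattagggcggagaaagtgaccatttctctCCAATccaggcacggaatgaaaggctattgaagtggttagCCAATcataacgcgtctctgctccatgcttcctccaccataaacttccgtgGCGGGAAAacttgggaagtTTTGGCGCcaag
Pole2: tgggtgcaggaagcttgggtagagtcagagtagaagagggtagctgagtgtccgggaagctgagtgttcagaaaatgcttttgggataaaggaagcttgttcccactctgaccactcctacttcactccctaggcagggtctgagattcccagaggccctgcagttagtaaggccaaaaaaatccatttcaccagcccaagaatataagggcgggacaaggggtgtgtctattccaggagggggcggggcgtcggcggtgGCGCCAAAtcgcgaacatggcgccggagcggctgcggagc
The *Rrm2* window held 1 CCAAT box and no E2F word, the *Rfc4* window neither, the *Mcm3* window 3 CCAAT boxes and 2 E2F words, starting at bases 270 and 289, and the *Pole2* window 1 E2F word, starting at base 261. The window of *Ccne1*, which had a larger mean change than *Rfc4* but passed in neither strain, held neither and is not shown. Of the 43 genes, 35 were matched by symbol to 41 windows. An E2F word was found in 13 windows (31.7%), against 607 of 21263 windows of protein-coding genes (2.85%), and a CCAAT box in 23 (56.1%), against 38.2%. The word TTTGAA, the core of the cell cycle homology region, was found in 4 (9.76%), against 16.0%. An E2F word was present in 4 of 14 windows of genes that rose in either strain and in 9 of 27 windows of the others. In 1 window an E2F word overlapped a CCAAT box. A match shows letters only and not a bound site, and base composition was not matched between the sets.

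Among the origin licensing genes, *Gmnn*, which encodes geminin, the inhibitor of Cdt1, had signals of 2129, 2185 and 2144 in the *Winnie* and 1835, 1698 and 1720 in the *Eeyore* mice, against 1395, 1437 and 1482 in wild-type mice. The spread within each group was small and no groups overlapped, and it rose by 0.58 in *Winnie* (adjusted p = 0.00234) but missed the threshold in *Eeyore* (0.28, adjusted p = 0.0519). The other 4 did not pass in either strain. The log2 fold changes in *Winnie* and *Eeyore* were -0.35 and 0.12 for *Orc1* and 0.33 and 0.02 for *Orc6*, subunits of the origin recognition complex. They were 0.46 and -0.26 for *Cdc6* and 0.30 and 0.13 for *Cdt1*, the helicase loaders. On its other tested probe set *Orc1* had the opposite sign in each strain (0.15 and -0.72, adjusted p = 0.745 and 0.0757).

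Of the 10 helicase genes, 3 rose in *Winnie* and 2 in *Eeyore* by their brightest probe sets. Besides *Mcm3* and *Mcm4*, *Mcm5* rose in *Winnie* (0.48, adjusted p = 0.0172), a call lost without *Winnie* mouse 2 (adjusted p = 0.0618) or wild-type mouse 3 (0.0604) and with epithelial centring (0.32, adjusted p = 0.0955), and had 0.23 in *Eeyore* (adjusted p = 0.179). In *Winnie* the other tested probe set of *Mcm5* had 0.27 (adjusted p = 0.388). The mean over all its probe sets was 0.46 (adjusted p = 0.42), but it includes a dim one below the filter, with signals of 4.22 to 72.0. The remaining ring subunits had log2 fold changes in *Winnie* and *Eeyore* of -0.14 and -0.24 for *Mcm2*, 0.11 and 0.22 for *Mcm6* and 0.08 and 0.12 for *Mcm7*, none of which passed, although another probe set of *Mcm2* passed in *Eeyore* and another of *Mcm7* in *Winnie*, as given below. *Mcm7* and *Mcm6* had signals of 2890 to 3713 and 1650 to 2177 in *Winnie* mice, 2934 to 3815 and 1944 to 2220 in *Eeyore* mice and 2804 to 3234 and 1684 to 1890 in wild-type mice. By their brightest probe sets the factors that activate the ring did not pass. *Mcm10* had 0.17 and 0.07, *Cdc45* had 0.46 and 0.26, and the GINS subunits *Gins1* and *Gins2* had 0.66 and 0.63 and 0.42 and 0.28. For *Gins1* no mutant array overlapped with wild-type, but wild-type mouse 3 (135) lay far below wild-type mice 1 and 2 (252 and 295), and the adjusted p was 0.101 in *Winnie* and 0.0989 in *Eeyore*. With quantile normalization *Gins1* passed with 0.90 in each strain (adjusted p = 0.0371 and 0.03).

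Of the 8 primase and polymerase genes, *Prim1*, the catalytic subunit of primase, rose by 0.50 in each strain (adjusted p = 0.0475 and 0.0376). Both calls were marginal: the one in *Winnie* was lost on leaving out any 1 of 8 mice (adjusted p between 0.0536 and 0.167), and the one in *Eeyore* without any 1 *Eeyore* mouse or wild-type mouse 1 or 3 (between 0.0687 and 0.132). With epithelial centring it had 0.33 and 0.18 (adjusted p = 0.189 and 0.432). *Pold2*, the accessory subunit of lagging-strand polymerase delta, passed in *Eeyore* (0.54, adjusted p = 0.0271), though not without *Eeyore* mouse 2 (0.106) or any 1 wild-type mouse (0.0548 to 0.0897) nor with epithelial centring (0.23, adjusted p = 0.326), and had 0.22 in *Winnie*. The catalytic subunits of the 3 replicative polymerases did not pass. In *Winnie* and *Eeyore*, *Pola1* had 0.24 and 0.11, *Pole* had 0.26 and -0.19 and *Pold1* had 0.19 and -0.02. *Pola2*, the accessory subunit of polymerase alpha, had 0.08 and 0.36, and *Prim2*, the large primase subunit, 0.26 and 0.08.

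The clamp and its loader held genes that moved in opposite directions. *Pcna*, the sliding clamp, had signals of 8566, 11187 and 8533 in the *Winnie* and 8450, 8624 and 7869 in the *Eeyore* mice, against 6526, 6751 and 6124 in wild-type mice. It rose by 0.53 in *Winnie* (adjusted p = 0.00573) and 0.36 in *Eeyore* (adjusted p = 0.0268), and the *Eeyore* call was lost without *Eeyore* mouse 1 or 2 or any 1 wild-type mouse (adjusted p between 0.0527 and 0.0838). That call was also lost with epithelial centring, which left 0.04 (adjusted p = 0.791), and with quantile normalization (0.24, adjusted p = 0.146). The loader is a ring of 1 large subunit, *Rfc1*, and small subunits *Rfc2* to *Rfc5*. *Rfc5* rose by 0.59 in *Winnie* (adjusted p = 0.017) and 0.49 in *Eeyore* (adjusted p = 0.0304), and *Rfc3* by 0.65 in *Eeyore* (adjusted p = 0.0312), with 0.58 in *Winnie* (adjusted p = 0.0613). The *Rfc5* call was lost in *Winnie* without *Winnie* mouse 2 or wild-type mouse 3 (adjusted p = 0.0513 and 0.0535) and in *Eeyore* without *Eeyore* mouse 2 or 3 or any 1 wild-type mouse (0.0536 to 0.102). The *Rfc3* call in *Eeyore* was lost without *Eeyore* mouse 1 or 2 or wild-type mouse 1 or 3 (0.0797 to 0.097), and without *Eeyore* mouse 3 *Rfc3* passed in *Winnie* (0.0483). The other tested probe set of *Rfc3* had 0.08 in *Winnie* and 0.43 in *Eeyore* (adjusted p = 0.892 and 0.378). With the mean over probe sets *Rfc3* had 0.54 in *Eeyore* and did not pass (adjusted p = 0.172). With epithelial centring *Rfc5* had 0.43 in *Winnie* and 0.17 in *Eeyore* (adjusted p = 0.0614 and 0.392) and *Rfc3* had 0.33 in *Eeyore* (adjusted p = 0.238). *Rfc2* had -0.40 in *Winnie* and -0.17 in *Eeyore* and passed in neither.

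*Rfc1*, the subunit that was lower, had signals of 654, 646 and 531 in the *Winnie* and 617, 534 and 542 in the *Eeyore* mice, against 912, 775 and 703 in wild-type mice. Every mutant array was dimmer than every wild-type array, and it fell by 0.49 ± 0.16 in *Eeyore* (adjusted p = 0.0342), with -0.38 ± 0.16 in *Winnie* (adjusted p = 0.102). The *Eeyore* call was lost without *Eeyore* mouse 2 or 3 (adjusted p = 0.0959 and 0.0803) or wild-type mouse 1 or 2 (0.126 and 0.0777), and with median centring the value was -0.17. The other probe sets of *Rfc1* gave -0.48 and -0.74 in *Winnie* (adjusted p = 0.0833 and 0.0279) and -0.51 and -0.70 in *Eeyore* (adjusted p = 0.0538 and 0.0267). Centring an array moves *Rfc4* and *Rfc1* alike, so that the difference between them within the same arrays does not depend on it.

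Of the 4 genes of single-strand binding and Okazaki fragment joining, 0 passed by the brightest probe set in either strain (limma, 0 also at an unadjusted p under 0.05). In *Winnie* and *Eeyore*, *Rpa1* and *Rpa2*, subunits of the protein that coats single-stranded DNA, had -0.02 and -0.16 and 0.01 and -0.12. *Lig1*, the ligase that seals nicks, had 0.15 and 0.25, and *Fen1*, the nuclease that trims flaps, 0.14 and 0.24. The sign of *Rpa1* depended on scaling, with 0.39 in *Winnie* after median centring (adjusted p = 0.0206) and -0.47 in *Eeyore* after epithelial centring.

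Of the 5 nucleotide synthesis genes, 4 rose in *Winnie* (80.0%, against 9.75% of all tested probe sets) and 2 in *Eeyore* (40.0%, against 12.2%). *Rrm1*, the large subunit of ribonucleotide reductase, had signals of 1372, 2041 and 1675 in the *Winnie* and 1093, 1574 and 1504 in the *Eeyore* mice, against 1118, 893 and 898 in wild-type mice. *Eeyore* mouse 1 lay within the wild-type range, and the log2 fold change was 0.80 in *Winnie* (adjusted p = 0.00977) and 0.51 in *Eeyore* (adjusted p = 0.0528). The *Eeyore* value passed without *Eeyore* mouse 1 (0.67, adjusted p = 0.0169), and also without *Winnie* mouse 1 or 2 or wild-type mouse 1 (adjusted p = 0.043, 0.0396 and 0.0498). The other tested probe set of *Rrm1* passed in both strains (0.98 and 0.64, adjusted p = 0.00168 and 0.0113), with signals of 1200 to 1900 in the *Winnie* and 1140 to 1210 in the *Eeyore* mice, against 707 to 809 in wild-type mice. *Dut*, the dUTPase that keeps uracil out of DNA, had signals of 1007, 1340 and 1067 in the *Winnie* and 843, 775 and 789 in the *Eeyore* mice, against 611, 713 and 745 in wild-type mice. It rose by 0.72 in *Winnie* (adjusted p = 0.00596), and in *Eeyore* the value was 0.22 (adjusted p = 0.279). The other tested probe set of *Dut*, which was dimmer, had 0.26 and 0.80 (adjusted p = 0.726 and 0.217). With the mean over probe sets *Dut* did not pass in *Winnie* (0.49, adjusted p = 0.215). *Tyms*, thymidylate synthase, was dim on its own probe sets. The brightest of them had signals of 63.3 to 77.5 in *Winnie* and 63.7 to 87.1 in *Eeyore* mice, against 115 to 151 in wild-type mice, with log2 fold changes of -0.95 and -0.82 that did not pass. A brighter probe set that matches *Tyms* and a *Tyms* pseudogene went the other way, with signals of 939 to 1540 and 995 to 1280, against 536 to 682 in wild-type mice (0.98 and 0.96, adjusted p = 0.00445 and 0.00339). The direction of *Tyms* is therefore uncertain on these arrays.

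Of the regulators, *Ccne2*, a cyclin E that drives S phase entry, had signals of 439, 451 and 478 in the *Winnie* and 281, 379 and 307 in the *Eeyore* mice, against 168, 171 and 375 in wild-type mice. It rose by 1.04 in *Winnie* (adjusted p = 0.0226), a call lost without *Winnie* mouse 2 or 3 or wild-type mouse 1 or 2 (adjusted p between 0.0594 and 0.0892), and had 0.53 in *Eeyore*, where wild-type mouse 3 lay among the mutant arrays (0.92 without it, adjusted p = 0.0114). *Ccne1*, the other cyclin E, had imprecise values of 1.00 ± 0.51 in *Winnie* and 1.18 ± 0.51 in *Eeyore* that did not pass, with wild-type signals of 211, 174 and 41.8. Without wild-type mouse 1 the *Eeyore* value was 1.62 (adjusted p = 0.0473). That fit kept the dim wild-type mouse 3 (41.8), and without mouse 3 *Ccne1* passed in neither strain. *E2f1*, an S phase transcription factor, had 0.03 and 0.21, *Uhrf1*, which guides maintenance DNA methylation, -0.00 in each, and *Slbp*, which binds histone mRNA, 0.00 and -0.09.

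Direct comparison of *Eeyore* with *Winnie* mice called 0 of the 43 genes, where 2.3% of all tested probe sets were called (limma), and 2 had an unadjusted p under 0.05. The lowest adjusted p was 0.119, for *Dut*, which was 0.49 lower in *Eeyore* on the log2 scale. The other, dimmer tested probe set of *Dut* was 0.54 higher in *Eeyore* (adjusted p = 0.635). Values of the list ran from -0.72 to 0.47 with a median of -0.10, against -0.02 over all tested probe sets. The 0.47 was that of *Orc1*, whose other tested probe set had -0.86 (adjusted p = 0.158). After epithelial centring 1 gene, *Gmnn*, was lower in *Eeyore* (-0.45, adjusted p = 0.0462).

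Mice of a strain differed from each other across the whole list. The median log2 signal relative to the wild-type mean was 0.31, 0.60 and 0.16 in *Winnie* mice 1, 2 and 3 and 0.14, 0.35 and 0.18 in *Eeyore* mice 1, 2 and 3, against 0.01, 0.04 and -0.03 in wild-type mice. *Winnie* mouse 2 was the highest of its group for 36 of the 43 genes and *Eeyore* mouse 2 for 27.

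**Figure D3:**
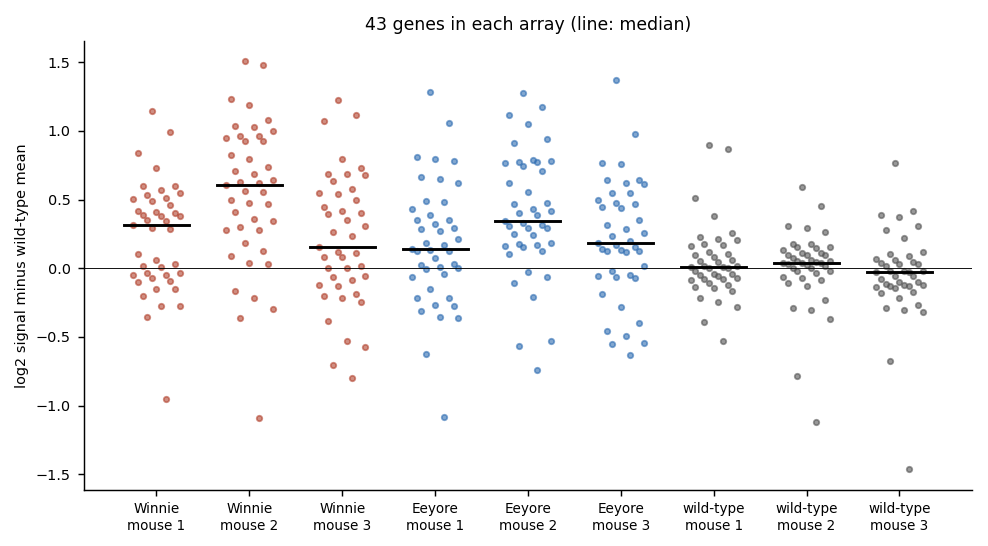
Log2 signal minus the wild-type mean (vertical axis) of the 43 genes in each of the 9 arrays, 1 point per gene, with the median as a line. The medians of all mutant arrays, 0.14 to 0.60, lie above those of the wild-type arrays, -0.03 to 0.04, with *Winnie* mouse 2 the highest.

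The 43 genes had 95 probe sets of their own, of which 74 passed the filter, and 33 genes had more than 1. Of 11 further tested probe sets of the genes that rose in *Winnie*, 11 had values above 0 and 7 passed, and of 9 for *Eeyore*, 9 were above 0 and 4 passed. Those of *Mcm3* had 0.29, 0.69 and 0.04 in *Eeyore* (adjusted p = 0.43, 0.0817 and 0.895). In *Winnie* they had 0.47, 0.76 and 0.59 (adjusted p = 0.226, 0.0698 and 0.0491). The one of *Mcm4* had 0.68 in *Winnie* and 0.33 in *Eeyore* (adjusted p = 0.0271 and 0.229). *Rrm2* read 1.81 and 1.59 in *Winnie* and 1.91 and 1.79 in *Eeyore* on its other probe sets, and *Prim1* 1.00 and 0.85, all of which passed. Some genes that did not pass by the brightest probe set passed by another. *Fen1* read 0.97 in *Winnie* (adjusted p = 0.00566) and 1.14 in *Eeyore* (adjusted p = 0.00151), with signals of 460 to 723 and 597 to 642, against 236 to 319 in wild-type mice. Its brightest probe set ranged from 530 to 1300 among wild-type mice and is of a type that can bind other transcripts. The brightest probe sets of *Rrm2*, *Mcm5* and *Ccne1* are of the same type. *Gins2* read 1.09 in *Eeyore* (adjusted p = 0.0114) and *Mcm2* 0.55 in *Eeyore* (adjusted p = 0.0459), with 0.57 and 0.56 in *Winnie*, which did not pass. *Mcm7* read 0.56 in *Winnie* (adjusted p = 0.0248) and 0.08 in *Eeyore* on 1 of its 3 other probe sets, and *Rrm1* passed in *Eeyore* by its other tested probe set. The *Mcm7* probe set that passed is also of the type that can bind other transcripts. On its remaining further probe sets *Mcm7* had 0.15 and 0.10 in *Winnie*, which did not pass. For *Mcm2*, *Orc1* and *Rpa1* the 2 tested probe sets differed in sign in both strains.

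**Figure D4:**
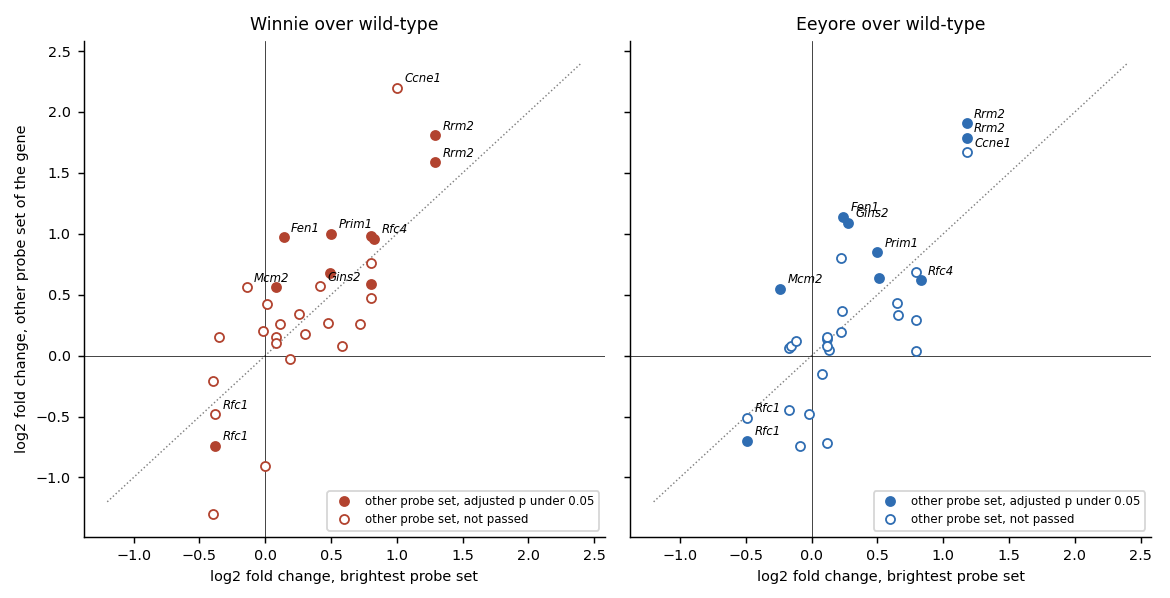
Log2 fold change over wild-type of each further tested probe set (vertical axis) against that of the brightest probe set of the same gene (horizontal axis), in *Winnie* (left) and *Eeyore* (right), with a dotted line of equality. *Rrm2* and *Prim1* passed above the line in both strains, *Rfc1* lies below 0 on both axes, and *Fen1* is near 0 by its brightest probe set and near 1 by the other.

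Other genes of the same pathways moved alike in part. Of 36 tested further replication factors, 11 rose in *Winnie* and 0 fell (30.6% higher, against 9.75% of all tested probe sets, median 0.35). In *Eeyore*, 8 rose and 1 fell (22.2% higher, against 12.2%, median 0.26). The largest were *Dscc1*, part of an alternative clamp loader (1.43 and 1.12, adjusted p = 0.0207 and 0.045), *Cdc7*, the kinase that fires origins (0.98 and 1.13, adjusted p = 0.0104 and 0.00342), and *Asf1b*, a histone chaperone (1.17 and 0.82, adjusted p = 0.00171 and 0.00802). Of 26 other nucleotide synthesis enzymes, *Winnie* mice had 4 rises and 3 falls and *Eeyore* mice 4 rises and 2 falls, with 15.4% higher in each strain, against 9.75% and 12.2% of all tested probe sets. Among them the nucleoside diphosphate kinases rose in both strains, *Nme1* by 2.22 and 1.69 and *Nme2* by 0.69 and 0.64. The probe set of *Nme1* is also of the type that can bind other transcripts. *Rrm2b*, the stress-induced counterpart of *Rrm2*, fell by 0.78 in *Winnie* (adjusted p = 0.025) with -0.57 in *Eeyore* (adjusted p = 0.069).

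None of 15 mitochondrial DNA replication genes rose in either strain, where 9.75% and 12.2% of all tested probe sets were higher. Of these genes 0 fell in *Winnie* and 2 fell in *Eeyore*, where 11.7% and 17.1% of all tested probe sets were lower. Their medians were -0.06 and -0.00 (3 and 5 had an unadjusted p under 0.05, limma). The 3 with the largest values were *Primpol*, a primase-polymerase (-0.84 and -1.15, adjusted p = 0.0891 and 0.022), *Top1mt*, the mitochondrial topoisomerase (0.76 and 0.74, not passed), and *Twnk*, the mitochondrial helicase (-0.19 and -0.66, not passed). *Tfb2m* had the same mean change as *Twnk* after rounding (-0.42), with -0.31 and -0.53 (adjusted p = 0.17 and 0.0211). Of 25 E2F, cyclin and CDK genes, *Winnie* mice had 4 rises and 3 falls (16.0% higher, against 9.75% of all tested probe sets) and *Eeyore* mice 5 rises and 2 falls (against 12.2% higher of all tested probe sets), with medians of 0.04 and 0.00. *Cdk6*, a G1 kinase, fell (-1.53 and -1.70), *E2f2*, an activating E2F factor, rose by 0.85 and 1.17, and *Tfdp2*, a dimer partner of E2F factors, fell (-0.90 and -0.99), all of which passed.

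Markers of other dividing or infiltrating cells were set beside these values. B cell and follicle markers summed to 1412 to 1904 in *Winnie* and 1927 to 3104 in *Eeyore*, against 2103 to 2207 in wild-type arrays, with 0 of 9 tested higher in either strain and 1 lower in *Winnie*. T cell markers summed to 528 to 678 in *Winnie* and 802 to 1272 in *Eeyore*, against 794 to 1016, with 0 of 3 tested called. Myeloid markers summed to 9947 to 12795 and 9917 to 19140, against 7990 to 8521, with 1 and 3 of 8 tested higher. Crypt stem cell markers had 0 of 9 tested higher, 6 lower in *Winnie* and 3 lower in *Eeyore*. Their sums overlapped with wild-type, at 16680 to 23824 in *Winnie* and 12468 to 20541 in *Eeyore*, against 20481 to 22722. No marker list had a gene below 41.2, the highest 25th percentile of any array, on all 9 arrays. The B and T cell sums of every *Winnie* array lay below those of wild-type arrays, while those of *Eeyore* arrays reached above them, and the part of lymphocytes, myeloid and epithelial cells in the results was not tested.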

How the data were processed

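RNA from the large intestine of 3 *Winnie*, 3 *Eeyore* and 3 wild-type mice was measured on 9 arrays. The authors deposited 1 linear signal intensity per probe set and array, for 45101 probe sets, with a trimmed mean of 500.0 on every array. The algorithm behind these signals is not given in the sources used here. They were log2-transformed as deposited. Control probe sets were left out, and 22519 of the other 45037, those at or above the 50th percentile of mean log2 signal (6.43, or 85.9 on the linear scale), entered the tests. The median signal of an array was 88.1 to 99.5 in mutant mice and 118.6 to 128.9 in wild-type mice, and 3 arrays per group limit the precision of every value.

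Symbols came from the platform annotation and were brought up to date by gene identifier, which paired 34945 probe sets with 1 gene, 932 with several and 9160 with none. A gene was read from its brightest probe set paired with it alone. Group means over all 9 arrays were compared with limma 3.58.1 under R 4.3.3, using lmFit and trended eBayes, and p-values were adjusted by Benjamini and Hochberg's method within each contrast over all tested probe sets, with a threshold of 0.05. Simulated data served to test the code. With 3 mice per group an exact two-sided permutation test of a single gene cannot give a p under 0.1. The members and all lists were chosen with earlier results of these data known.

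Values in every array are given for the 6 genes with the largest absolute change called in both strains and for any gene called lower, and for *Gmnn*, *Pcna*, *Rrm1*, *Dut* and *Ccne2*, which were added after their values were seen. All 43 genes are named, and of each other pathway list the 3 with the largest absolute mean change, with *Ccna2* and *Tfb2m* added as ties after rounding. Alternatives were quantile normalization, median centring, centring on 12 epithelial markers, 2 other filters, an offset of 32 before the log, untrended and robust eBayes, a fit to the compared groups alone, a block for mouse number, the mean over probe sets and leaving out each mouse. The mean over probe sets took in those of a gene that lay below the filter. Promoter windows were taken from RefSeq on GRCm38.p6. Python 3.11.15 with matplotlib 3.10.9 drew the figures.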

Additional observations from a re-analysis of the deposited data

How the results depend on the processing

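Of 14 genes called in *Winnie*, 5 (*Gmnn*, *Pcna*, *Rfc4*, *Rrm2*, *Tk1*) were called under all 20 alternatives, and of 12 in *Eeyore*, 2 (*Rfc4*, *Rrm2*). In *Winnie*, 30 genes passed with median centring and 9 with the mean over probe sets, and in *Eeyore*, 22 passed with median centring and 6 with centring on epithelial markers, against 14 and 12. Leaving out 1 mouse gave 8 to 14 genes in *Winnie* and 5 to 13 in *Eeyore*. The median log2 fold change was 0.45 with quantile normalization, 0.71 with median centring, 0.14 with epithelial centring, 0.48 with the filter at the 75th percentile and 0.13 to 0.47 on leaving out 1 mouse in *Winnie*. In *Eeyore* it was 0.56 with median centring, -0.08 with epithelial centring and 0.16 to 0.28 on leaving out 1 mouse. It lay above the median of all tested probe sets by 0.21 to 0.55 in *Winnie* and 0.25 to 0.38 in *Eeyore* on leaving out 1 mouse. Over the main and all other settings the excess was 0.38 to 0.49 in *Winnie* and 0.2 to 0.38 in *Eeyore*. The 0.2 came with the filter at the 75th percentile, where the median of all tested probe sets was 0.05 in each strain. Between *Eeyore* and *Winnie*, 1 gene passed with epithelial centring and 0 on leaving out any 1 mouse, with medians of -0.13 to -0.01. *Rpa1* reversed in *Winnie* (0.39 with median centring, against -0.02). Both centrings move all probe sets of an array together, quantile normalization does not, and the cause of the other changes was not tested. Mouse numbers did not pair the arrays (correlations of -0.00821 to 0.164 between arrays of the same number). With the mouse number as a replicate block, 14 genes passed in *Winnie* and 12 in *Eeyore*, where *Pole2* in *Winnie* lost its call (adjusted p = 0.0572) and *Rfc3* in *Winnie* gained one (adjusted p = 0.0417). Dim signals differed between groups, which limits genes close to the filter such as *Tyms* and *E2f1*.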
